A study of Mus musculus with 22 samples.

Results

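The Dlk1-Dio3 cluster is the group of miRNAs on the distal part of mouse chromosome 12, between Meg3 and the end of Mirg. Its members were taken by position: every mature name in the deposited count table with a single locus, on the plus strand, with a start in a window of 220000 bp on GRCm38 that opens 1001 bp before Meg3 and closes 10540 bp after Mirg. This gave 107 mature names on 56 hairpins, of 1966 names in the table. The names span 184240 bp, from chr12:109563710 to chr12:109747949. Of the 107 names, 31 reached 50 counts summed over the 22 libraries, and these 31 came from 22 hairpins. A further 15 names had 10 to 49 counts, 29 had 1 to 9, and 32 had 0 counts in every library. A count of 0 over all 39010121 counts allows a level of up to 0.0769 CPM, which are counts relative to the library total, for counting error only. The name just inside the limit had 54 counts and the name just outside it 32.

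The Dlk1-Dio3 domain is imprinted. The chromosome inherited from the mother expresses the non-coding RNAs Meg3, Rian and Mirg together with the miRNAs, and the chromosome inherited from the father expresses the protein genes Dlk1, Rtl1 and Dio3. The control region of the domain gains its methylation in the male germ line. Several of the miRNAs lie antisense to Rtl1, a gene of retrotransposon origin, and the largest run of hairpins lies around Mirg. The miRNAs are known from brain, placenta and embryonic tissues, and from connective and muscle cells.

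The RNA came from round spermatids (RS), germ cells that have just completed meiosis, of mice aged 75 to 85 days, and its small fraction was sequenced. Batch 1 held 5 WT libraries and 5 libraries of mice lacking GRTH/DDX25 (KO), a testis RNA helicase. Batch 2 held 6 WT libraries and 6 libraries of knock-in mice (KI). The paper describes these as carrying the human GRTH gene with the missense change R242H, which leaves the protein without its phosphorylated form. Both changes are constitutive, so every cell of the animal carries them. RS were separated on a BSA gradient and their purity was judged by DAPI staining. The labels do not say that the libraries of a group came from separate animals, so p-values measure only the spread between these libraries. In such bulk samples, fewer cells of a type and less RNA per cell cannot be told apart. The level of the targeted transcript, an mRNA, was not analysed here.

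The libraries held 559957 to 1081333 counts in batch 1 and 2067322 to 3239357 in batch 2. Counts of 3, the limit that a count of 0 allows, correspond to 2.77 to 5.36 CPM in batch 1 and to 0.926 to 1.45 CPM in batch 2. Between 25 and 50 of the 107 names had a count in a library. As a check of the cell type, the list of 8 miRNAs of meiotic and postmeiotic germ cells, which holds miR-34b, miR-34c and miR-449a, summed to between 207209 and 371023 CPM. miRNAs of other cell types were also present, and their levels are given with the results below.

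The 3 hairpins that carry the main results are shown from RefSeq (GRCm38.p6, plus strand), 5′ to 3′, with the mature 5p and 3p products in capitals. miR-541 lies at chr12:109742409-109742498 and miR-409 at chr12:109743158-109743236, both in introns of Mirg. miR-127 lies at chr12:109592846-109592915, opposite an exon of Rtl1.
miR-541 hairpin: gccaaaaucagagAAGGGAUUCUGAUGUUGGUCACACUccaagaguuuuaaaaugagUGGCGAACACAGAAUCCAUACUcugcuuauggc
miR-409 hairpin: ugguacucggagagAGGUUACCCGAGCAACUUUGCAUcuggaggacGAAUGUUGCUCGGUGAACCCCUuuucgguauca
miR-127 hairpin: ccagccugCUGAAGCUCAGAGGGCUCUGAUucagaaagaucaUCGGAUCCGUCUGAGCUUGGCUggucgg

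The mature sequences of the names that were called in a comparison (below) are shown next, with the seed (bases 2 to 8) in capitals, because the seed is the part by which a miRNA pairs with its targets.
miR-127-3p: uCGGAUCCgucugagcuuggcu
miR-136-5p: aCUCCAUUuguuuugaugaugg
miR-411-5p: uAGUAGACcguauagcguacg
miR-300-3p: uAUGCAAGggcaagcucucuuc
miR-381-3p: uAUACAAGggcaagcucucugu
miR-154-5p: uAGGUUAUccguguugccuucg
miR-541-5p: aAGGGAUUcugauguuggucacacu
miR-409-5p: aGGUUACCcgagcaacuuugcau
miR-409-3p: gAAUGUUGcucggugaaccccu
miR-369-3p: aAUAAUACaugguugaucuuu

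RefSeq held 30 of the 31 names that reached 50 counts, and the 30 seeds were all different. The members that were called therefore do not form a seed family. miR-300-3p and miR-381-3p differ in 3 bases. The other 20 names with a sequence are given for reference, in order along the chromosome.
miR-337-5p: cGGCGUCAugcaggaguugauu
miR-127-5p: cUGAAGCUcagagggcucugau
miR-434-5p: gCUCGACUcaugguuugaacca
miR-434-3p: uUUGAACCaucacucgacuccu
miR-136-3p: aUCAUCGUcucaaaugagucuu
miR-299a-5p: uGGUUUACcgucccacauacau
miR-299a-3p: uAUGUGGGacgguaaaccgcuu
miR-329-5p: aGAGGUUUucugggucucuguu
miR-494-3p: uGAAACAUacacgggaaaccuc
miR-376b-5p: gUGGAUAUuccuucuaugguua
miR-376b-3p: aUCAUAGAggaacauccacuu
miR-376a-3p: aUCGUAGAggaaaauccacgu
miR-382-5p: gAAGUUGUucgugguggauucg
miR-382-3p: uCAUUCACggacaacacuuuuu
miR-134-5p: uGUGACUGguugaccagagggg
miR-377-3p: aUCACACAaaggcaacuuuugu
miR-541-3p: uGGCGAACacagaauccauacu
miR-412-5p: uGGUCGACcagcuggaaaguaau
miR-369-5p: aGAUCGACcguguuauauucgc
miR-410-5p: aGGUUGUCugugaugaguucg

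miR-376c-3p reached 50 counts as well. Some names have near-identical copies whose reads the counting may have split. miR-299a-5p and miR-299a-3p match miR-299b-5p and miR-299b-3p with 0 mismatches over the bases they share, and the miR-299b names had 0 counts. miR-376b-5p differs from miR-376c-5p in 1 base, and miR-376b-3p from miR-376a-3p in 3. miR-300-3p and miR-381-3p, both called below, also differ in 3 bases. The same number separates miR-154-5p, called as well, from miR-494-5p, which had 0 counts. The values of these names are uncertain for that reason.

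The cluster was a minor part of the RS small RNA and its counts were uneven along the chromosome. It held 24968 counts, or 0.0640% of the counts of all libraries. miR-541-5p, a product of 25 bases, held 8936 of them (35.8%), miR-409-3p 5773 (23.1%) and miR-409-5p 2200 (8.81%), so that 3 names held 67.7%. The most abundant name had 165 times the counts of the least abundant of the 31.

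The first stretch, from Meg3 up to Rtl1, held 14 names and 117 counts, and 1 of its names, miR-337-5p with 61 counts, reached 50. The miRNAs antisense to Rtl1 held 11 names, of which 6 reached 50, with 2598 counts (10.4%). These were both products of miR-127, miR-434 and miR-136, with miR-127-3p the most abundant at 1089 counts. miR-431 and miR-433, from the same antisense stretch, stayed under 50. The 6 names in introns of Rian, of miR-341, miR-1188 and miR-370, had 10 counts in all. The stretch from miR-379 to the end of Mirg held 73 names, 24 of which reached 50, and 22243 counts (89.1%). The 3 remaining names, miR-882 and both products of miR-544, had 0 counts. miR-379-5p, named by the study, summed to 10 counts and never exceeded 1 in a library. miR-485-5p, likewise named by the study, summed to 14 and never exceeded 2.

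Within the last stretch, a run of 1363 bp from miR-541 to miR-410 at chr12:109742422-109743784 held 5 hairpins and 10 names. Of these, 8 reached 50, and together they held 74.3% of all counts of the cluster. Neighbouring hairpins of this run differed widely. miR-412, which lies between miR-409 and miR-369, had 209 counts of its 5p product.

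**Figure D1:**
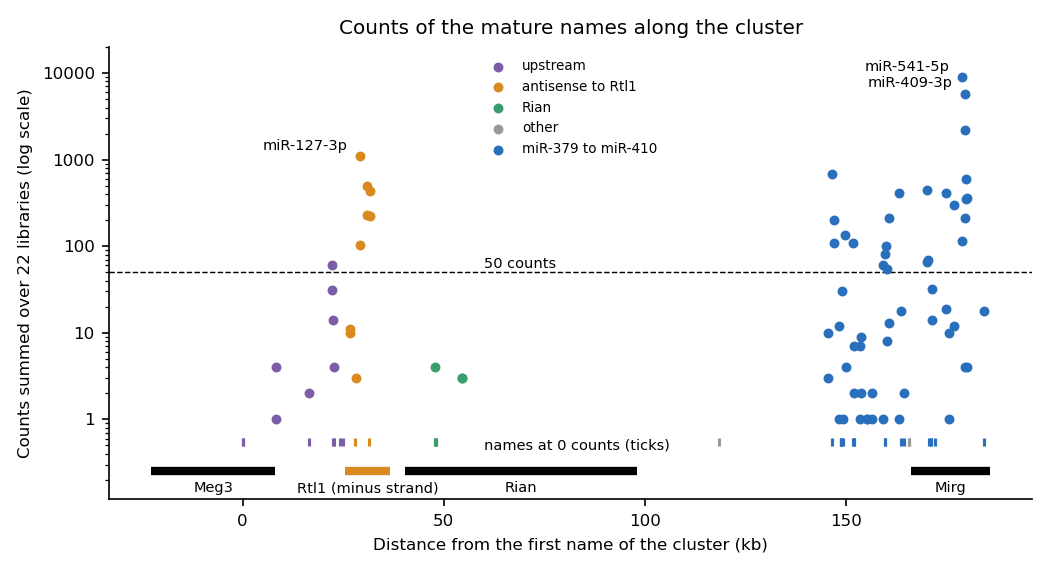
Counts of each of the 107 names summed over 22 libraries (y axis, log scale) against the distance in kb from the first name of the cluster (x axis). Colours mark the stretches, ticks mark the 32 names at 0 counts, the dashed line marks 50 counts, and the bars show Meg3, Rtl1, Rian and Mirg. The counts peak antisense to Rtl1 and at the miR-541 to miR-410 run, where miR-541-5p reaches 8936.

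The cluster as a whole stood higher in both mutants than in the WT of the same batch. Its summed level, in CPM scaled by TMM within each batch, was 644, 622, 625.1, 615 and 708 in the 5 WT libraries of batch 1. In the 5 KO libraries it was 1011, 1164, 1203, 1008 and 1028. Every KO library lay above every WT library. The mean was 643 ± 38.1 CPM for WT (SD, n = 5) and 1083 ± 93.1 CPM for KO (SD, n = 5), a ratio of 1.68. In batch 2 the sum ranged from 420 to 493.7 in WT with a median of 461, and from 647 to 794 in KI with a median of 702. These groups did not overlap either, with means of 455 ± 26.1 (SD, n = 6) and 711 ± 49 (SD, n = 6) and a ratio of 1.56. As a share of all counts in a library, the WT mean of the cluster was 0.0618% ± 0.00373 (SD, n = 5) and the KO mean 0.113% ± 0.0154 (SD, n = 5). The WT mean of batch 2 was 0.0442% ± 0.00317 (SD, n = 6) and the KI mean 0.0733% ± 0.00573 (SD, n = 6). No p-value is given for the sums, since members were chosen with earlier results known.

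The composition by stretch was much the same in the 4 groups. The antisense stretch held 8.47% of the cluster's counts in WT and 8.17% in KO of batch 1, and 10.8% in WT and 11.5% in KI of batch 2. Single hairpins moved more. miR-541 held 43.7% in WT and 43.5% in KO of batch 1, and 32.4% in WT and 34.0% in KI of batch 2. miR-409 held 28.7% in WT and 32.5% in KO of batch 1, and 32.5% in WT and 32.2% in KI of batch 2. miR-541 and miR-409 together had a WT mean of 467 ± 45 CPM (SD, n = 5) and a KO mean of 826 ± 55.9 (SD, n = 5). Their WT mean of batch 2 was 296 ± 25 (SD, n = 6) and the KI mean 474 ± 49.6 (SD, n = 6). The other 103 names had a WT mean of 176 ± 41.9 (SD, n = 5) and a KO mean of 256 ± 41.1 (SD, n = 5), and of 159 ± 21.7 (WT; SD, n = 6) and 237 ± 52.5 (KI; SD, n = 6) in batch 2. For these other names the KO and WT libraries did not overlap, and the KI and WT libraries did.

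**Figure D2:**
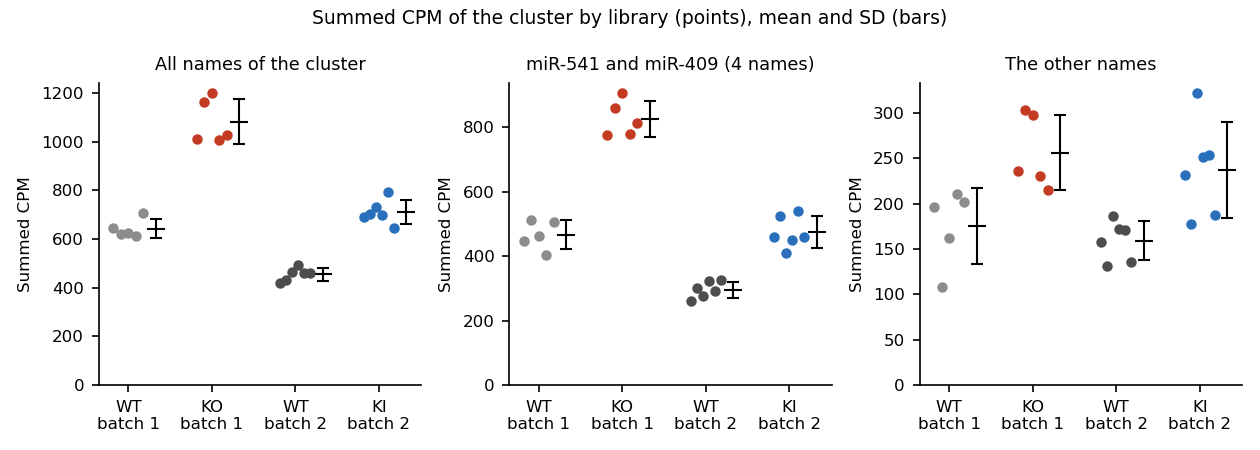
Summed CPM (y axis, from 0) by library (points) in the 4 groups (x axis), with the mean and SD beside the points. The left panel shows all 107 names, where no mutant library reaches down to the WT libraries of its batch, the middle panel the 4 names of miR-541 and miR-409, and the right panel the other 103 names, where KI and WT overlap.

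The comparison of KO with WT asked which miRNAs differ when GRTH is absent. Of the 31 names, 8 passed the filter on low counts and were tested, and 23 were not tested. miR-409-3p, miR-541-5p, miR-409-5p and miR-127-3p were called higher in KO. A call means a Benjamini-Hochberg adjusted p below 0.1 over all miRNAs tested with the quasi-likelihood method of edgeR. No member was called lower. Over the whole table, 334 miRNAs entered the test and 41.9% were called, 21.3% with a higher and 20.7% with a lower level in KO. The 8 members had a median log2 fold change of 0.66, beside 0.01 over all miRNAs tested. The filter asked for 11.4 CPM in at least 5 libraries. On the WT libraries alone, 4 of the 8 would have passed, and of these miR-541-5p, miR-409-5p and miR-409-3p were called and miR-369-5p was not. miR-127-3p, miR-136-5p and miR-411-5p passed through the KO libraries and not through WT, and miR-127-3p was the 1 called among them. miR-382-5p passed through libraries of both groups. Since members entered partly through the group in which they were high, the count and the median over the 8 are a description and support nothing on the members that were not tested. With library size in place of TMM, 101 miRNAs of the table were called higher and 44 lower, in place of 71 and 69, and the median over all miRNAs was 0.13.

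miR-409-3p, the more abundant product of its hairpin, was at 126, 151, 135, 127.4 and 125 CPM in the WT libraries of batch 1. In KO it was at 280, 284, 238, 247 and 307. The lowest KO library was well above the highest WT library. The log2 fold change was 1.03 (SE 0.11, edgeR adjusted p 6.27e-05).

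miR-541-5p, the most abundant name of the cluster, was at 269, 313, 270, 223 and 322 CPM in WT and at 410.7, 477, 594, 435 and 421 in KO. The groups did not overlap, and replicate 3 was the highest of the KO libraries. The log2 fold change was 0.74 (SE 0.13, edgeR adjusted p 0.00192). miR-409-5p, from the other arm of the miR-409 hairpin, was at 49.9, 47.4, 56.1, 50.6 and 55.0 CPM in WT and at 77.7, 93.5, 68.0, 93.2 and 84.2 in KO. Here too all KO libraries were above all WT libraries, with a log2 change of 0.68 (SE 0.13, edgeR adjusted p 0.00347). Of all miRNAs tested, 8.68% did not overlap between the groups with KO higher, and 3 of the 8 members were of this kind.

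miR-127-3p, antisense to Rtl1, was at 25.5, 5.64, 15.1, 38.4 and 22.8 CPM in WT and at 34.2, 44.7, 47.6, 35.6 and 28.1 in KO. The groups overlapped, because WT replicate 4 lay above 3 of the KO libraries, and WT replicate 2 was far below the rest. The log2 fold change was 0.81 (SE 0.35, edgeR adjusted p 0.0927), just inside the threshold, and it entered the test through the KO libraries. Without WT replicate 2 it was 0.57 with an adjusted p of 0.124, and the call was lost when any 1 of 8 of the 10 libraries was left out.

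The 4 tested members that were not called had log2 fold changes of 0.32 to 0.63, with adjusted p-values of 0.134 to 0.509. They were miR-136-5p at 0.63 (SE 0.31), miR-411-5p at 0.48 (SE 0.25), miR-382-5p at 0.34 (SE 0.38) and miR-369-5p at 0.32 (SE 0.23). Their CPM overlapped between the groups. miR-411-5p was at 15.1, 9.03, 16.2, 14.1 and 11.4 CPM in WT and at 25.01, 21.8, 13.6, 13.6 and 16.5 in KO, where 3 of the 5 KO libraries were above the WT range. miR-136-5p was at 16.2, 4.51, 15.1, 16.9 and 17.7 CPM in WT and at 19.7, 31.2, 23.1, 18.6 and 14.9 in KO, so that WT replicate 2 was again the lowest library. The 23 names that were not tested had mean levels of 0.582 to 9.82 CPM in WT and 0.865 to 14 in KO, and none had more than 20 counts in a library. The ratio of KO to WT means was above 1 for 20 of the 23. This number is a description only, since the counts were low and the share over all miRNAs was not taken. miR-299a-3p lay the other way, with 15 counts over the WT libraries and 3 over the KO libraries, and no fold is given at that depth.

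**Figure D3:**
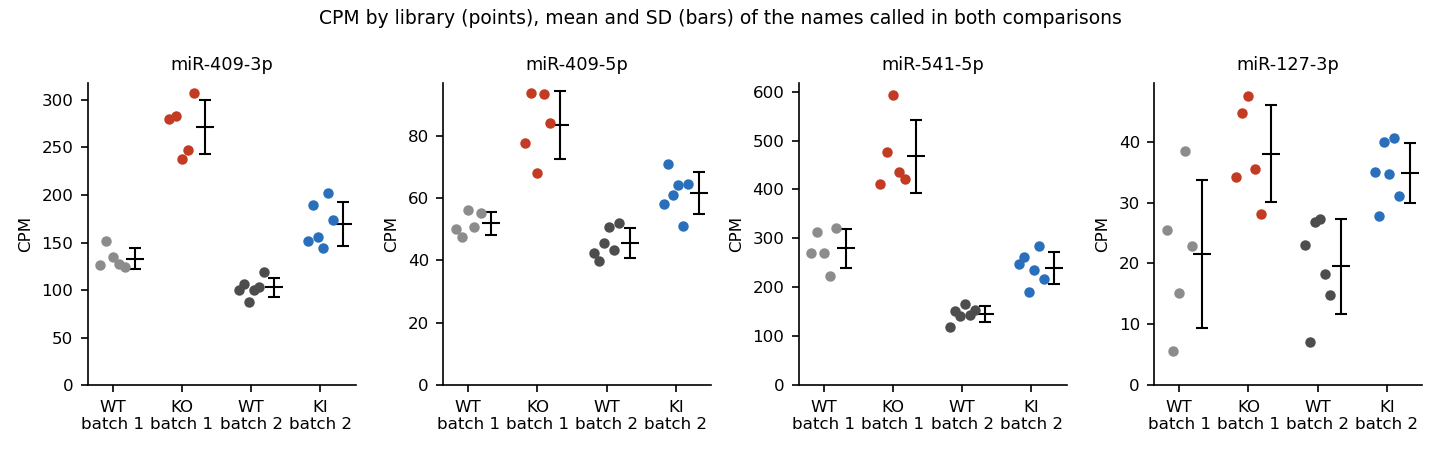
CPM (y axis, from 0) of the 4 names called in both comparisons, by library (points) in the 4 groups (x axis), with the mean and SD beside the points. For miR-409-3p and miR-541-5p each mutant library lies above the WT libraries of its batch, while for miR-127-3p the WT libraries of batch 1 spread from 5.64 to 38.4 CPM.

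The comparison of KI with WT asked which miRNAs differ in mice with the R242H knock-in, whose GRTH lacks its phosphorylated form. In these deeper libraries 19 of the 31 names were tested and 10 were called, all higher in KI. They were miR-409-3p, miR-541-5p, miR-409-5p and miR-369-3p from the miR-541 to miR-410 run, miR-411-5p, miR-300-3p, miR-381-3p and miR-154-5p from the hairpins before it, and miR-127-3p and miR-136-5p antisense to Rtl1. Over the whole table, 387 miRNAs entered the test and 38% were called, 18.1% with a higher and 19.9% with a lower level in KI. The 19 members had a median log2 fold change of 0.66, beside 0.00 over all miRNAs tested. The filter asked for 3.95 CPM in at least 6 libraries. On the WT libraries alone, 9 of the 19 would have passed, and 6 of those 9 were called, namely miR-127-3p, miR-411-5p, miR-154-5p, miR-541-5p, miR-409-5p and miR-409-3p. Another 6 passed through the KI libraries and not through WT, with miR-136-5p, miR-381-3p and miR-369-3p called among them. The other 4 passed through libraries of both groups, with miR-300-3p called. The count and the median over the 19 are therefore a description only. With library size only, 96 miRNAs of the table were called higher and 53 lower, in place of 70 and 77.

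miR-409-3p ranged from 87.8 to 119 CPM in WT of batch 2 (median 102) and from 144 to 202 in KI (median 165). The groups did not overlap. The log2 fold change was 0.72 (SE 0.10, edgeR adjusted p 1.62e-04). miR-541-5p ranged from 118 to 166 CPM in WT (median 147) and from 191 to 285 in KI (median 241), again without overlap. Its log2 fold change was 0.72 (SE 0.11, edgeR adjusted p 2.72e-04). miR-127-3p ranged from 7.06 to 27.3 CPM in WT (median 20.6) and from 27.9 to 40.7 in KI (median 34.9). Its groups were separated by a narrow gap, and its log2 fold change was 0.83 (SE 0.23, edgeR adjusted p 0.0167). Groups that did not overlap with KI higher made up 5.43% of all miRNAs tested, and these 3 of the 19 members.

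miR-409-5p ranged from 39.8 to 51.9 CPM in WT (median 44.4) and from 51.0 to 70.9 in KI (median 62.6). Only the lowest KI library lay within the WT range. Its log2 fold change was 0.43 (SE 0.10, edgeR adjusted p 0.00594), the smallest among the 10 that were called.

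miR-411-5p ranged from 9.94 to 15.6 CPM in WT (median 12.7) and from 13.1 to 35.7 in KI (median 23.1). Of its KI libraries, 4 of 6 lay above every WT library, and the log2 fold change was 0.82 (SE 0.22, edgeR adjusted p 0.0143). miR-369-3p ranged from 3.96 to 10.7 CPM in WT (median 5.68) and from 6.56 to 13 in KI (median 11.9). The groups overlapped at 1 KI library, and the log2 fold change was 0.81 (SE 0.23, edgeR adjusted p 0.0182).

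miR-154-5p ranged from 5.05 to 10.4 CPM in WT (median 7.90) and from 8.61 to 22.5 in KI (median 13), with a log2 change of 0.78 (SE 0.23, edgeR adjusted p 0.0207). Of its KI libraries, 5 of 6 were above the WT range. miR-381-3p ranged from 4.03 to 11.9 CPM in WT (median 8.29) and from 10.7 to 17.1 in KI (median 12.6), with a log2 change of 0.66 (SE 0.22, edgeR adjusted p 0.0355). Here 3 of 6 KI libraries were above the WT range. miR-300-3p ranged from 3.02 to 5.19 CPM in WT (median 3.86) and from 2.05 to 12.6 in KI (median 7.90), with a log2 change of 1.02 (SE 0.37, edgeR adjusted p 0.0489). Its lowest library was a KI library.

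miR-136-5p ranged from 3.53 to 8.78 CPM in WT (median 5.79) and from 5.74 to 22.8 in KI (median 10). The KI libraries were widely spread and 3 of 6 lay above the WT range. The log2 fold change was 0.98 (SE 0.35, edgeR adjusted p 0.0442). Without KI replicate 3 it was 0.69 with an adjusted p of 0.110, and that of miR-300-3p was 0.84 with an adjusted p of 0.111. Without KI replicate 4, miR-300-3p was at 0.89 with an adjusted p of 0.104.

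Of the 10 names called in KI, 4 were not tested in batch 1. There miR-369-3p was at 15.1, 9.03, 6.48, 9.37 and 8.31 CPM in WT and at 11.8, 4.16, 19.03, 6.78 and 1.65 in KO. miR-154-5p was at 6.96, 4.51, 4.32, 8.43 and 7.27 CPM in WT and at 6.58, 15.6, 8.15, 18.6 and 6.60 in KO. Both names overlapped between the groups, and for miR-369-3p the lowest and the highest library were KO libraries. miR-381-3p was at 4.64, 7.90, 5.40, 13.1 and 7.27 CPM in WT and at 7.90, 14.5, 17.7, 8.47 and 14.9 in KO. miR-300-3p was at 3.48, 0, 4.32, 2.81 and 0 CPM in WT and at 5.27, 4.16, 8.15, 3.39 and 6.60 in KO. These names overlapped as well, with 3 of the 5 KO libraries above the WT range for each.

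The 9 tested members that were not called had log2 fold changes of 0.17 to 0.68, with adjusted p-values of 0.140 to 0.623. They were miR-434-5p, miR-434-3p, miR-136-3p, miR-299a-5p, miR-382-5p, miR-377-3p, miR-412-5p, miR-369-5p and miR-410-5p. miR-434-5p, at 0.68 (SE 0.35), had the largest value among them and miR-412-5p, at 0.17 (SE 0.25), the smallest. The 12 names that were not tested had means of 0.951 to 2.84 CPM in WT and 1.46 to 4.31 in KI, with a ratio of KI to WT above 1 for 10 of the 12. The exceptions were miR-382-3p and miR-134-5p. The KI libraries held 11084 of the 24968 counts of the cluster, so rare names reached 50 counts largely through KI. The number of ratios above 1 is a description only, and the share over all miRNAs was not taken.

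**Figure D4:**
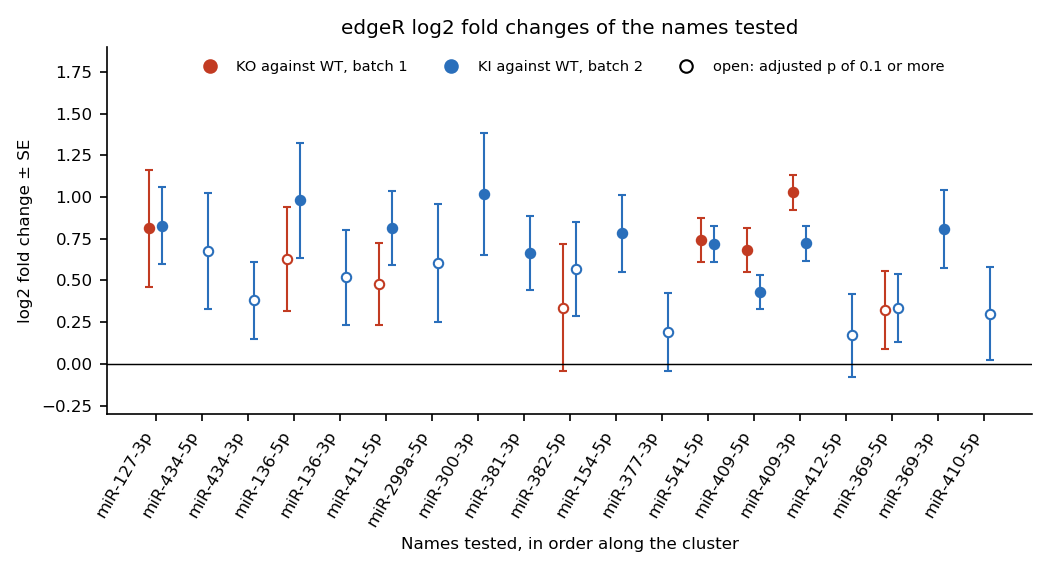
Log2 fold change with its SE (y axis) of the names tested, in order along the cluster (x axis), for KO against WT of batch 1 and KI against WT of batch 2. Filled points are called at an adjusted p under 0.1, and each of the 8 values for KO and 19 for KI lies above 0.

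The effects of KO and KI were set side by side, each against its own WT libraries. For miR-409-3p they were 1.03 and 0.72, for miR-541-5p 0.74 and 0.72, for miR-409-5p 0.68 and 0.43, and for miR-127-3p 0.81 and 0.83. Whether the effects differ was tested as the difference between them in a fit of all 22 libraries. Among the 421 miRNAs in it, 0% were called by edgeR and 0 by DESeq2, and 67 had an unadjusted p under 0.05 in edgeR. Of the 22 members in this fit, 0 had an unadjusted p under 0.05. miR-409-3p came nearest, with a difference of 0.31 on the log2 scale (SE 0.15, edgeR unadjusted p 0.0505, adjusted p 0.313). For miR-409-5p the difference was 0.24 (SE 0.16), for miR-541-5p 0.02 (SE 0.17) and for miR-127-3p -0.03 (SE 0.42). Over the 22 members the differences ran from -0.95 for miR-369-3p (SE 0.51) to 0.80 for miR-329-5p (SE 0.85), so for the rarer names only large differences could have been seen. Genotype and batch cannot be told apart in this test beyond what the WT libraries of each batch remove.

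The WT libraries of the batches were compared to see how much the members move without a change of genotype. Over all 383 miRNAs of this fit, 56.7% were called. These were 26.9% higher and 29.8% lower in batch 2, and on the scaling of this fit 17% did not overlap with batch 2 higher and 19.6% with batch 2 lower. Of the 31 names, 15 were tested and 5 were called, and 0 of the 15 lay without overlap in either direction. miR-541-5p was lower in batch 2 by a log2 change of -0.60 (SE 0.13, edgeR adjusted p 9.70e-04). Scaled over both batches together, it ranged from 172 to 278 CPM in WT of batch 1 and from 127.2 to 178 in WT of batch 2, so that the groups met in a narrow band, whereas its CPM scaled within each batch, as given above, did not overlap. Also lower was miR-136-5p, by -0.87 (SE 0.30, edgeR adjusted p 0.0236). miR-136-3p was higher, by 1.36 (SE 0.53, edgeR adjusted p 0.0423), as were miR-377-3p by 0.76 (SE 0.31, edgeR adjusted p 0.0546) and miR-154-5p by 0.68 (SE 0.26, edgeR adjusted p 0.0422). miR-409-3p changed by -0.03 (SE 0.11). The balance of this comparison depends on the scaling. With library size only, 4 members were called and all 4 were lower, miR-409-3p among them at -0.36, and over all miRNAs tested 47 were higher and 193 lower. The median over all miRNAs was then -0.34 in place of -0.01. Relative to that shift, miR-409-3p again lay close to the other miRNAs.

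The products of the 2 arms of a hairpin come from 1 precursor, and their ratio does not depend on the library scaling. The 9 hairpins with both products at 50 counts or more were miR-127, miR-434, miR-136, miR-299a, miR-376b, miR-382, miR-541, miR-409 and miR-369. miR-541 gave 8936 counts of its 5p and 116 of its 3p product over all libraries, while miR-127 gave 1089 of its 3p and 103 of its 5p. Mean log2 ratios of 5p to 3p counts were compared by two-sided exact permutation tests over libraries, 18 tests in all. None was called at an adjusted p under 0.1, and 2 had an unadjusted p under 0.05, both for miR-409. Its mean log2 ratio was -1.35 ± 0.19 for WT (SD, n = 5) and -1.70 ± 0.20 for KO (SD, n = 5), a change of -0.35 (exact permutation p 0.0238, adjusted p 0.370). For batch 2 it was -1.17 ± 0.18 for WT (SD, n = 6) and -1.46 ± 0.27 for KI (SD, n = 6), a change of -0.29 (exact permutation p 0.0411, adjusted p 0.370). The smallest p that the tests can give is 0.00794 with 5 libraries against 5 and 0.00216 with 6 against 6. Over 18 tests, a change in 1 hairpin alone in KO could therefore not have been called. The absence of calls in KO does not show that the ratios were unchanged. For miR-136 the ratio moved with the batch, from 67 counts of 5p and 12 of 3p in WT of batch 1 to 92 and 79 in WT of batch 2.

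The members differed in their spread within a group, as described here for 7 names chosen after their values were seen. miR-541-5p, miR-409-3p and miR-409-5p varied little between libraries of a group, with coefficients of variation of 7.08% to 16% over the 4 groups. For miR-127-3p it was 56.8% in WT of batch 1, 40.0% in WT of batch 2, 21% in KO and 14.2% in KI. For miR-136-5p it was 28.6% to 57.0%, for miR-434-3p 21.04% to 48.6% and for miR-411-5p 14.1% to 36.6%. The ranges of the 7 names met, since miR-127-3p in KI and miR-411-5p in WT of batch 2 varied no more than miR-541-5p in KO. miR-127-3p had 5 to 41 counts in a WT library of batch 1, where miR-409-5p had 42 to 54. Over the 5 WT libraries of batch 1, miR-411-5p had 62 counts, miR-434-3p 46 and miR-136-5p 67, where miR-541-5p had 1307. Names with few counts vary more through counting error alone. That part of the spread was not separated out.

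The libraries in which the other names were high were mostly also those in which miRNAs of stroma and endothelium were high. The list for smooth muscle, stroma and endothelium had 7 names, miR-143-3p, miR-145a-5p, both products of miR-199a, miR-214-3p and both of miR-126a. Of the 5 that were tested, 4 were called higher in KO and 4 in KI, and 0 of the 7 were at 0 counts. miR-199a-3p rose by 0.96 on the log2 scale in KO (SE 0.25, edgeR adjusted p 0.0130) and miR-143-3p by 1.02 (SE 0.22, edgeR adjusted p 0.00709). miR-126a-3p, the endothelial name of the 5, was the 1 not called, with log2 fold changes of 0.38 in KO (SE 0.29, edgeR adjusted p 0.327) and -0.04 in KI (SE 0.25, edgeR adjusted p 0.918). The summed level of the list ranged from 898 to 2484 CPM in WT and 2272 to 4744 in KO, and from 1226 to 2126 in WT and 2000 to 4398 in KI. Its ratio of means was 1.86 for KO and 1.64 for KI, beside 1.46 and 1.49 for the other 103 names and 1.77 and 1.60 for miR-541 and miR-409. Its part in the result was not tested.

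At the 2 ends of the list, the order of the libraries for miR-541 with miR-409 ran opposite in WT of batch 1 and in KI. It did not run clearly opposite in KO or in WT of batch 2. WT replicate 2 of batch 1 had the lowest level of the list (898 CPM), the lowest of the other 103 names (108) and the highest of miR-541 with miR-409 (513). WT replicate 4 of batch 1 had the highest level of the list (2484 CPM), the highest of the other names (211) and the lowest of miR-541 with miR-409 (404). KI replicate 3 had the highest level of the list (4398 CPM), the highest of the other names (322) and the lowest of miR-541 with miR-409 (410). KI replicate 2 was the lowest for the list and for the other names and ranked 5 of 6 for miR-541 with miR-409. KO replicate 2 was the highest of its group for the list and for the other names, and it ranked 4 of 5 for miR-541 with miR-409, counted from the lowest. KO replicate 5 was the lowest for both and ranked 3 of 5 for miR-541 with miR-409. In WT of batch 2 the library lowest for the list ranked 2 of 6 for the other names and 6 of 6 for miR-541 with miR-409, and the library highest for the list ranked 5 of 6 for each.

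**Figure D5:**
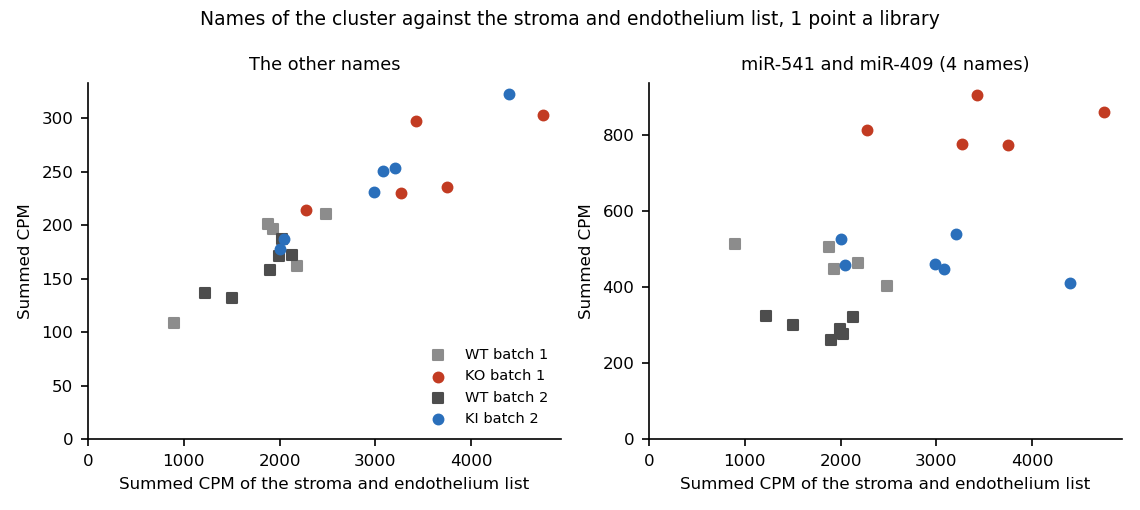
Summed CPM of the other 103 names (left, y axis) and of the 4 names of miR-541 and miR-409 (right, y axis) against the summed CPM of the stroma and endothelium list (x axis), 1 point for each of 22 libraries. On the left the points mostly rise along the list. On the right each mutant group lies above the WT of its batch, and KI replicate 3, at 4398 CPM of the list, is the lowest KI point. CPM are scaled within each batch, so points of different batches are not on a common scale.

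By the ratio of their means, the other lists rose less than the stroma list or fell. The 8 blood and immune miRNAs summed to 4794 to 6063 CPM in WT and 5447 to 7155 in KO, with 3 of 6 tested called higher and 0 lower. In batch 2 they summed to 2697 to 3443 in WT and 3376 to 5314 in KI, with 5 of 6 called higher and 0 lower. The ratio of means was 1.11 for KO and 1.43 for KI, and miR-142a-3p held most of the sum. miR-150-5p rose by 1.64 on the log2 scale in KO (SE 0.51, edgeR adjusted p 0.0273), more than any tested name of the stroma list. Over all miRNAs tested, 21.3% were called higher in KO and 18.1% in KI. Of the 3 names of the blood list made in red blood cells, miR-451a had group means of 29.8 to 59.6 CPM and was not called in KO or KI. miR-486a-5p had group means of 2.94 to 6.36 CPM, and miR-144-3p had 1 count in all. Both miR-202 products, found in Sertoli and Leydig cells, summed to 80.1 to 228 CPM in WT and 51.3 to 133 in KO, and to 98.3 to 170 in WT and 72.3 to 94.3 in KI, with 0 called in KO and 2 called lower in KI. The 3 neural miRNAs summed to 2692 to 4120 CPM over all groups, with 0 called in KO and 1 higher in KI. The 7 miRNAs of early embryo and primordial germ cells summed to 43.6 to 143 CPM, mostly of miR-295-3p, and miR-302a-3p had 1 count in all. Of the 2 tested, 0 were called in KO and 1 was called higher in KI, miR-295-3p, which rose by 0.44 on the log2 scale (SE 0.13, edgeR adjusted p 0.0200), and the ratio of the list's means was 1.35 for KI and 0.906 for KO. Of the 8 germ cell miRNAs, 6 were called lower in KO and 6 in KI, where 20.7% and 19.9% of all miRNAs tested were called lower. The ratio of means of the germ cell list was 0.873 for KO and 0.923 for KI, and its sums overlapped between mutant and WT in both batches. The part of these lists in the results of the cluster was not tested.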

How the data were processed

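The values as deposited are raw counts, 1 for each mature name and library. The authors removed adapters with cutadapt 3.4 (per the file headers and the paper's methods), aligned the reads to GRCm38 with Bowtie2 2.4.2 in local mode and counted them by strand with featureCounts (Subread 2.0.1). Reads marked as duplicates were kept, and the command names no option for reads with several alignments. The labels put the 22 libraries in 4 groups, and unused columns of per-sample values numbered 0. The paper's methods have KI as the earlier batch, and the labels were followed here. The members and the lists were chosen with earlier results of these data known.

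Coordinates are 1-based, hosts come from GENCODE vM21 of the same build and sequences from RefSeq, where 103 of 107 names matched, all at the same coordinates. The window held 6 more names on the minus strand with 1 count, and 2 names with several loci with 4 counts, which were left out. Every name reaching 50 counts is named. Those called in KO or KI are given for each library of batch 1, and by the lowest, median and highest library in the groups of 6.

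Each comparison was fitted on the whole table with edgeR 4.0.16 in R 4.3.3 (quasi-likelihood test, TMM, filterByExpr, genotype or batch as the only term), and names were called at an adjusted p under 0.1. CPM are scaled by TMM within a batch, and 0.5 counts were added for arm ratios. On simulated counts with 200 miRNAs changed by 1 on the log2 scale, the fit recovered 94.5% for KO over 334 miRNAs, 97.0% for KI over 387, 93.5% for the WT comparison over 383 and 79.0% for the difference over 421. False calls made up 4.06%, 2.51%, 3.11% and 6.51% of the calls, in the same order. The changed miRNAs were drawn from all tested, and most members had log2 changes below 1. These shares therefore do not give the recovery for the members. DESeq2 1.42.0, another scaling, other filters, the replicate block and leaving out each library were tried as alternatives. Replicate pairs differed beyond sampling noise, with a chi-square per degree of freedom of at least 8.32. Floors cover counting error only, since reads are not independent molecules. Python 3.11.15, numpy 2.4.6, pandas 2.3.3, scipy 1.17.1 and matplotlib 3.10.9 were used.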

Additional observations from a re-analysis of the deposited data

Results flagged for a closer look

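In each group, the highest and the lowest library of the cluster's summed level, of each called member and of the arm ratio of miR-409 were compared with the other libraries by Dixon's criterion. Of 40 combinations, 3 held a library that stood apart, and chance gives about 1 in 20, or 2. miR-136-5p was at 2.46 on the log2(CPM + 1) scale in WT replicate 2 of batch 1, where the other WT libraries were between 4.01 and 4.22. miR-369-3p was at 2.92 in KI replicate 2, where the others were between 3.61 and 3.804. The log2 ratio of 5p to 3p counts of miR-409 was -1.98 in KI replicate 5, where the others were between -1.43 and -1.17.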

How the results depend on the processing

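The number of members called was 4 for KO and 10 for KI with TMM, with another scaling (RLE) and with DESeq2. With library size only it was 5 and 11, without a filter on low counts 4 and 12, and at an adjusted p under 0.05 it was 3 and 10. The 12 without a filter include 2 names under 50 counts, miR-431-3p with 10 counts, which was higher in KI, and miR-1193-3p with 7, which was lower. With the replicate block 3 members were called for KO, where miR-127-3p was lost at an adjusted p of 0.103, and 10 for KI. The labels do not say whether same-numbered libraries are paired. Correlations of same-numbered libraries ran from -0.21 to 0.31 in batch 1 and from -0.12 to 0.56 in batch 2. They were not set beside those of differently numbered libraries, so they cannot settle the pairing. Leaving out 1 library gave 3 to 4 members for KO, 8 to 12 for KI, 3 to 5 for WT between batches, in place of 5, and 0 to 0 for the difference of the effects and for the arm ratios. For the arm ratios, a change in 1 hairpin alone in KO could not have been called in these runs either. The 3 calls for WT came without WT replicate 3 of batch 1 or without WT replicate 3, 4 or 5 of batch 2. With 1 library left out, the mean summed level was 626 to 650 CPM in WT and 1053 to 1101 in KO of batch 1. For batch 2 it was 448 to 462 in WT and 695 to 724 in KI.

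None of the 8 members tested for KO or the 19 for KI changed direction under the alternatives run. For WT between batches, miR-409-3p was at 0.067 without a filter and from -0.092 to 0.036 without 1 library. For the difference of the effects, miR-541-5p was at -0.039 with RLE, -0.037 with DESeq2, -0.067 without a filter and -0.051 with a mean of at least 10 counts, and from -0.062 to 0.099 without 1 library. miR-127-3p was at 0.014 with library size only and from -0.26 to 0.31 without 1 library. The cause was not tested. Depth limits the 23 names not tested in batch 1, which stayed under the filter of 11.4 CPM in at least 5 libraries.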
